A study of Mus musculus with 28 samples.

Results

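Of 9854 genes with a mean of at least 5 CPM (counts of a gene relative to the total counts of its library) in the mouse gastric corpus, 92 changed the side of their response to a villin-PPARD transgene between 10 and 55 weeks of age. The whole count table holds 49492 genes. The members were selected on measured values: counts were scaled to CPM by the column total, taken as log2(CPM + 1) and averaged within each group, and the villin-PPARD mean minus the wild-type mean had to reach 0.5 with opposite signs at 10 and at 55 weeks. By this rule 38 genes were higher in villin-PPARD mice at 10 weeks and lower at 55 weeks, and 54 were lower at 10 weeks and higher at 55 weeks. The differences at 10 and 55 weeks therefore chose the members and are given as descriptions, with no test. The genotype difference at 25 weeks had no part in the choice. The 25-week libraries did count in the mean CPM, which was taken over all 28 libraries.

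The protein PPARD (peroxisome proliferator-activated receptor delta) binds fatty acids and their derivatives and acts on DNA as a nuclear receptor together with a retinoid X receptor. The villin promoter is used mainly to drive genes in intestinal epithelium, and bulk counts do not show which gastric cell types carry the transgene. The corpus is the acid-secreting body of the stomach. Its surface is covered by pit cells, which secrete the gel-forming mucin of Muc5ac, while mucous neck cells inside the glands secrete that of Muc6. The glands also hold parietal and chief cells, the sources of acid and pepsinogen. In injured glands, mucous cells that carry neck cell and other markers can take the place of parietal and chief cells, a change known as metaplasia.

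Epithelial cells were scraped by hand from the corpus of villin-PPARD mice, called transgenic below, and of wild-type littermates. The groups held 5 mice per genotype at 10 weeks, 4 at 25 weeks and 5 at 55 weeks, 28 libraries in all with 1 mouse each. Total counts ranged from 10982888 to 30891108 per library. Ppard was higher on average in transgenic mice at each age, with 104 ± 7.07 CPM over 68.5 ± 6.72 CPM at 10 weeks (SD, n = 5), 92.1 ± 13.1 over 66.3 ± 9.5 CPM at 25 weeks (SD, n = 4) and 118 ± 8.94 over 76.3 ± 6.85 CPM at 55 weeks (SD, n = 5). Wild-type replicates 2 and 3 of 10 weeks differed by a chi-square of 3.95 per degree of freedom, against 13.8 to 150 for other pairs within a group. They were counted as 2 mice. The counts of genes that met the rule and some 10-week differences are also given with the pair as 1 library. Parietal and chief cell markers, which define the corpus, were abundant in wild-type mice: the summed level of 24 parietal genes ranged from 10255 to 23049 CPM over the 3 ages.

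The scaling bears on every value below. With column totals the median difference of all 9854 genes was 0.09 at 10 weeks, 0.24 at 25 weeks and 0.46 at 55 weeks on the log2 scale, so that a gene at the 55-week limit of 0.5 lay close to the median gene. With TMM factors, which set the bulk of genes to no change, the medians were 0.05, 0.09 and 0.08. Under TMM 35 of the 38 genes of the first direction met the rule again, but 21 of the 54 of the second, and the counts of genes that met it became 68 and 34. The signs at 10 and at 55 weeks of all 92 members were the same under TMM. Mitochondrially encoded genes took 4.81% to 20.4% of counts in wild-type libraries and 1.57% to 6.27% in transgenic libraries; with these genes left out of the totals 35 and 74 genes met the rule.

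**Figure D1:**
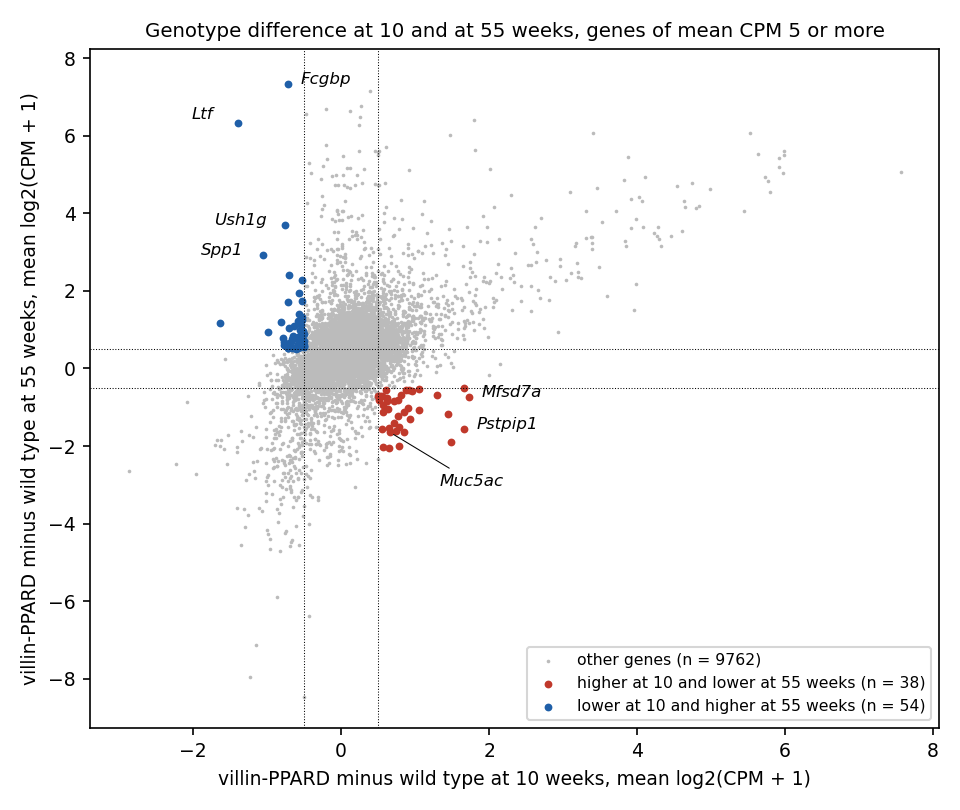
Transgenic minus wild-type difference in mean log2(CPM + 1) at 10 weeks (horizontal axis) against 55 weeks (vertical axis) for genes with a mean of at least 5 CPM; dotted lines mark differences of 0.5 and each point is a gene. The 38 genes at the lower right and the 54 at the upper left are the members, most of them near the dotted lines, while Fcgbp and Ltf stand at 7.34 and 6.34 on the vertical axis.

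Reversal was the less common course. Of 1270 genes with a 10-week difference of at least 0.5, 924 were also at least 0.5 higher at 55 weeks and 38 were at least 0.5 lower. Of 629 genes with a 10-week difference of -0.5 or less, 302 remained at -0.5 or less and 54 reached 0.5 or more. The reversing genes were 2.99% of the 1270 and 8.59% of the 629. By comparison, 748 of all 9854 genes were at -0.5 or less at 55 weeks and 4597 were at 0.5 or more. The members just inside the limit were Sema3e, Clca4a and Adcy2 in the first direction, whose smaller difference was 0.50, 0.50 and 0.52, and the genes just outside were Anpep, Lrrc10b and Fhdc1, all just under 0.50. In the second direction Mlec, Ppat and Kitl lay just inside, each with a smaller difference of 0.50, and Hivep3 and Zdhhc17 outside, also just under 0.50.

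In the first direction the turn lay after 25 weeks and mainly in transgenic mice. The median difference of the 38 genes was 0.77 at 10 weeks, 0.64 at 25 weeks and -1.04 at 55 weeks. From 10 to 55 weeks the transgenic mean fell in 37 of the 38, with a median change of -1.70, while the wild-type median change was 0.28. The transgenic change was the larger in 34 genes. The wild-type change was the larger in the other 4, which included Nccrp1 and Tpsab1 and, named here after their values were seen, Ccdc80. In the second direction the median difference moved from -0.61 at 10 weeks through -0.26 at 25 weeks to 0.79 at 55 weeks. The transgenic mean rose from 10 to 55 weeks in all 54 genes, with a median of 1.20 against 0.38 over all genes, and the wild-type mean fell in 43, with a median of -0.27 against 0.02 over all genes. All 55-week libraries belong to the second of the library groups that the deposited column names carry, while 10-week replicates 1 to 3 and the 25-week libraries, apart from wild-type replicate 3 with its replacement tag, belong to the first, so that age and library group cannot be told apart between 25 and 55 weeks.

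**Figure D2:**
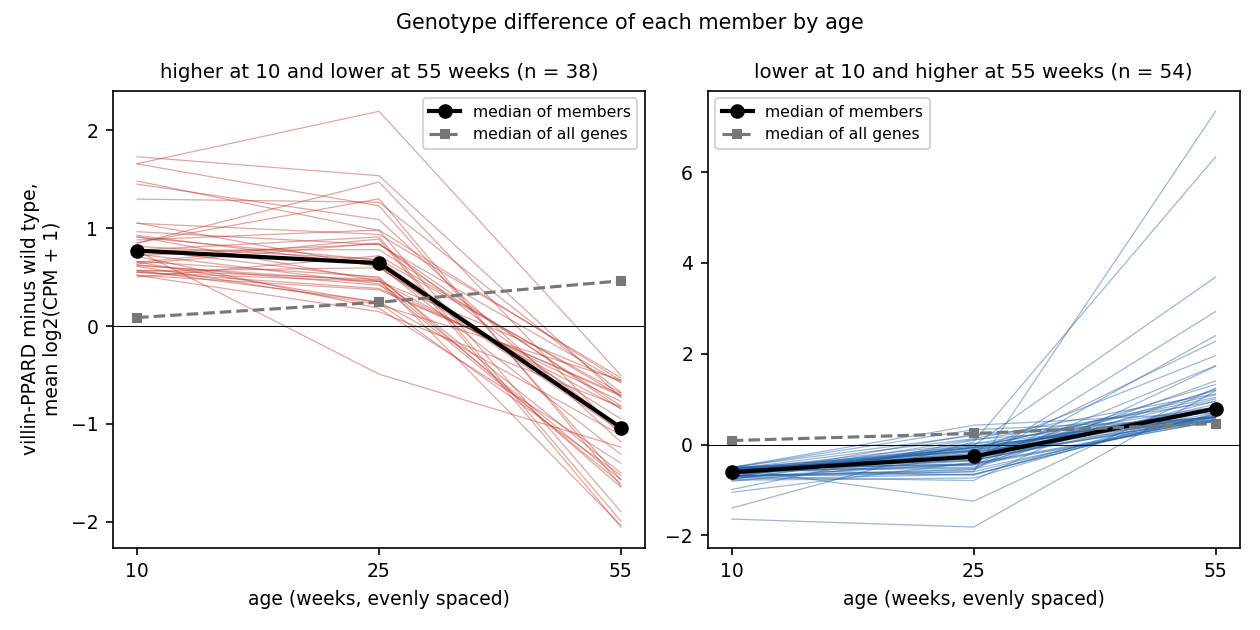
Transgenic minus wild-type difference in mean log2(CPM + 1) at 10, 25 and 55 weeks for the 38 genes of the first direction (left) and the 54 of the second (right); thin lines are genes, the black line is the members' median and the dashed line the median of all 9854 genes. The left lines stay above 0 at 25 weeks, with Tpsab1 as the exception, and cross it before 55 weeks; the right median lies at -0.26 at 25 weeks.

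At 25 weeks, the age whose genotype difference the rule did not use, the genotypes were compared with edgeR's quasi-likelihood test. The fit held all 28 libraries, and a gene was called where its p, adjusted over 15812 genes by the Benjamini-Hochberg method, was under 0.05. All 92 members were among the genes tested. Of the 38 genes of the first direction, 18 were called higher in transgenic mice and 1, Tpsab1, was called lower, where 21% of all genes tested were called higher and 18.6% lower. Of the 54 genes of the second direction, 25 were called lower and 0 higher. Genes past the same 10-week limit that were not members were called on their 10-week side more often: 88.4% of 1232 genes with a difference of at least 0.5, and 82.1% of 575 genes with one of -0.5 or less. They include genes that changed sign at 55 weeks by less than the limit, such as Fhdc1. Their median levels were 49.4 and 15.1 CPM, against 30.5 and 13.9 CPM in the members. Those genes had median 10-week differences of 0.71 and -0.65, close to the members' 0.77 and -0.61, and median 25-week differences of 0.87 and -0.63 against the members' 0.64 and -0.26. Called genes in the second direction numbered 15 when only library size was scaled for, and those of the first 13 without wild-type replicate 4.

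The 3 members of the first direction with the highest mean CPM were Muc5ac, Dpcr1 and Muc6. Muc5ac (chromosome 7, 141788972 to 141819231, GRCm38), the gel-forming mucin of pit cells, was at 17758, 13105, 13136, 15374 and 16931 CPM in the wild-type libraries of 10 weeks and at 27532, 21881, 22944, 22968 and 24779 CPM in the transgenic ones. At 25 weeks its wild-type libraries were at 15065, 12151, 16523 and 11790 CPM and its transgenic libraries at 25620, 20944, 15202 and 17617 CPM. At 55 weeks its wild-type libraries were at 18716, 12511, 13465, 18960 and 12331 CPM and its transgenic libraries at 2188, 8512, 5424, 4356 and 5555 CPM. The genotypes of Muc5ac did not overlap at 10 and at 55 weeks and overlapped at 25 weeks, where the log2 difference of 0.37 ± 0.27 (SE) was not called (edgeR adjusted p = 0.285). Its wild-type level was about the same at the youngest and oldest age, with a change of -0.02, while the transgenic level moved by -2.33.

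Dpcr1 (also Mucl3, chromosome 17, 35635752 to 35643695), a mucin-like membrane protein gene of the same pit cell list, was also higher at 10 and lower at 55 weeks. Its transgenic libraries lay at 13349 to 15595 CPM at 10 weeks against 9389 to 12079 CPM in wild type, and at 2328 to 5194 CPM at 55 weeks against 9302 to 12273 CPM. The groups did not overlap at these 2 ages. At 25 weeks Dpcr1 ranged from 10519 to 18822 CPM in transgenic and from 7850 to 13316 CPM in wild-type mice and was not called (log2 difference 0.31 ± 0.23, SE; edgeR adjusted p = 0.284).

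Muc6 (chromosome 7, 141633456 to 141655319), the mucin of neck cells, was at 580, 874, 784, 563 and 567 CPM in wild-type and at 965, 989, 1105, 922 and 1555 CPM in transgenic libraries at 10 weeks. In the 25-week mice it was at 1101, 1239, 581 and 1036 CPM in wild-type and at 818, 1237, 1863 and 722 CPM in transgenic libraries. At 55 weeks it was at 492, 500, 656, 797 and 885 CPM in wild-type and at 584, 297, 96.2, 231 and 225 CPM in transgenic libraries. Muc6 did not overlap between genotypes at 10 weeks, and at 55 weeks 1 transgenic library lay within the wild-type range. Its 25-week difference of 0.05 ± 0.34 (SE) was not called (edgeR adjusted p = 0.917), and its sign turned in fits that left out transgenic or wild-type replicate 3.

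The other genes of the cell lists that hold these members are given without the members. Of the 18 other pit cell genes tested, edgeR called 4 higher and 1 lower at 10 weeks, where 17.9% of all genes were called higher and 16.2% lower, 4 higher and 2 lower at 25 weeks, and 4 higher and 10 lower at 55 weeks, where 31.7% were called higher and 27.6% lower. The summed level of these 18 ranged from 130840 to 194540 CPM in wild-type and from 53328 to 91321 CPM in transgenic mice at 55 weeks. Of the pit cell genes named after their values were seen, Muc1, a membrane mucin, was called higher at all 3 ages (log2 differences 1.10, 0.89 and 1.04). Gkn1, a secreted pit cell gastrokine, had log2 differences of -0.35, -0.83 and -2.33 and was called lower at 25 weeks (edgeR adjusted p = 0.00462). Of 17 mucous neck and metaplasia genes other than Muc6 and Spp1, 15 were called higher and 1 lower at 55 weeks. At 55 weeks 19 of 24 parietal genes and 14 of 15 chief cell genes other than Pnliprp2 were called lower, with median log2 differences of -2.50 and -4.29. In these bulk samples fewer cells of a type and less RNA per cell cannot be told apart, and the part of cell make-up in the members' values was not tested.

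B4galnt3, which adds N-acetylgalactosamine to glycan ends, averaged 237 ± 34.6 CPM in wild-type mice at 10 weeks and 490 ± 20.3 CPM in transgenic mice (SD, n = 5), and 164 and 78.2 CPM at 55 weeks. Its 25-week means were 185 and 282 CPM, a log2 difference of 0.45 ± 0.19 (SE) that was not called (edgeR adjusted p = 0.0513). Fut9, a fucosyltransferase that makes the Lewis x structure, belonged to the second direction, with 20.1 and 10.2 CPM in wild-type and transgenic mice at 10 weeks and 11 and 23 CPM at 55 weeks. The first library group had a 10-week difference of -1.52 for Fut9 and the second one of -0.20. Chst4, a sulfotransferase named here after its values were seen, had the largest 55-week difference of the first direction, -2.05, and was called higher at 25 weeks (log2 difference 0.77 ± 0.27, SE; edgeR adjusted p = 0.0279).

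Mfsd7a (chromosome 5, 108441054 to 108448891), a transporter of the major facilitator superfamily, was at 17.2, 24.1, 24.3, 17.4 and 21.9 CPM in wild-type and at 82.7, 73.1, 59.2, 66.3 and 77.4 CPM in transgenic libraries at 10 weeks. At 25 weeks it was at 29.2, 22.9, 23 and 18.8 CPM against 86.1, 74.9, 51.2 and 69.5 CPM. The 55-week values were 24.4, 24, 32.1, 23.6 and 28.6 CPM against 14.9, 21.1, 17.0, 12.8 and 13 CPM. The genotypes of Mfsd7a did not overlap at any age, and the 25-week log2 difference was 1.44 ± 0.19 (SE; edgeR adjusted p = 9.31e-07), the lowest p of the 38. Slc9a3, an apical sodium and proton exchanger, had means of 10.1 and 27.2 CPM in wild-type and transgenic mice at 25 weeks (log2 difference 1.29 ± 0.28, SE; edgeR adjusted p = 0.000858) and 11.1 and 2.90 CPM at 55 weeks. Chp2, a calcium-binding partner of such exchangers, had log2(CPM + 1) differences of 1.45, 1.09 and -1.19 at the 3 ages and was called higher at 25 weeks (edgeR adjusted p = 0.00502). Ffar4, a receptor for long-chain fatty acids, averaged 28.8 and 52.1 CPM at 25 weeks (log2 difference 0.70 ± 0.15, SE; edgeR adjusted p = 0.000448) and 40.2 and 21.9 CPM at 55 weeks. Of the 32 ion channel and solute carrier genes tested other than Slc9a3, 9 were called higher and 9 lower at 25 weeks, and 17 higher and 11 lower at 55 weeks. The shares over all genes tested were 21% higher and 18.6% lower at 25 weeks, and 31.7% and 27.6% at 55 weeks.

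Pstpip1 (chromosome 9, 56089962 to 56128888), an adaptor protein of the actin cytoskeleton known mostly from blood cells, had the largest smaller difference of this direction, 1.57. It was at 14.8, 12.3, 12.2, 17.2 and 18.3 CPM in wild-type and at 57.5, 45.2, 37.5, 55.9 and 50.4 CPM in transgenic libraries at 10 weeks. In the 25-week mice it was at 22.6, 20.5, 16.4 and 17.5 CPM against 49.8, 43.1, 47.5 and 44.4 CPM. Pstpip1 was, at 55 weeks, at 33.3, 32.1, 30.6, 28.2 and 31.8 CPM against 10.7, 13.7, 11.4, 8.18 and 6.51 CPM. All transgenic libraries of Pstpip1 lay above the wild-type libraries at 10 and 25 weeks and below them at 55 weeks (25-week log2 difference 1.11 ± 0.18, SE; edgeR adjusted p = 2.78e-05). Of 22 myeloid genes tested, 3, 4 and 18 were called higher at 10, 25 and 55 weeks, and 0 were called lower at any age. Over all genes tested 17.9%, 21% and 31.7% were called higher at these ages. The part of myeloid cells in the values of Pstpip1 was not tested. Acp7, an acid phosphatase gene, had the same course, at 30.7, 17.8, 17.0, 21.5 and 22.5 CPM against 63.2, 70.9, 59.9, 57.7 and 57.5 CPM at 10 weeks and at 31.4, 15.1, 24.4, 24.6 and 16.6 CPM against 3.17, 10.9, 6.41, 4.22 and 3.33 CPM at 55 weeks. It was called higher at 25 weeks (log2 difference 0.86 ± 0.28, SE; edgeR adjusted p = 0.0154). The exons of Acp7, B4galnt3, Vstm2b and Rhobtb1 overlap a gene on the opposite strand, whose reads an unstranded library does not separate.

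Fabp4, a fatty acid-binding protein gene that PPARs activate in other tissues, had wild-type and transgenic means of 20.9 and 51.9 CPM at 10 weeks, 21.6 and 53.9 CPM at 25 weeks and 35.8 and 27.8 CPM at 55 weeks. Its transgenic libraries of 55 weeks were spread widely, at 15, 40, 62.2, 9.97 and 11.9 CPM, so that 1 of them lay above all 5 wild-type libraries. The 25-week call of Fabp4 (log2 difference 1.16 ± 0.41, SE; edgeR adjusted p = 0.0285) was lost when transgenic replicate 1 or 4, or wild-type replicate 1, 3 or 4, was left out (edgeR adjusted p from 0.0543 to 0.0816). Of 39 fatty acid oxidation and PPAR target genes tested, Fabp4 was the only member, and 8 were called higher and 11 lower at 25 weeks. Fabp4 is also a marker of fat cells: of 4 other adipocyte genes tested, 1 was called higher and 3 lower at 10 and at 25 weeks, and 0 higher and 4 lower at 55 weeks. Among all genes tested, 17.9%, 21% and 31.7% were called higher and 16.2%, 18.6% and 27.6% lower at 10, 25 and 55 weeks. The part of fat cells in the values of Fabp4 was not tested. Agpat4, an acyltransferase of phospholipid synthesis, was higher at 25 weeks, at 238 against 122 CPM in wild type (edgeR adjusted p = 0.00028) and averaged 147 and 102 CPM at 55 weeks. Gldc, the glycine decarboxylase of mitochondria, was higher at 25 weeks, at 279 against 163 CPM (edgeR adjusted p = 0.00424) and averaged 151 and 87.3 CPM at 55 weeks.

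The other genes named for this direction were called in part. Vstm2b and Nccrp1 were called higher at 25 weeks (log2 differences 0.53 ± 0.15 and 1.62 ± 0.27, SE; edgeR adjusted p = 0.00586 and 3.94e-05). Nccrp1, with a mean of 5.01 CPM, lay at the lower limit of level, and met the rule in 11 of the 20 sets that each left out a library. Its highest group mean, 9.23 CPM, was that of the transgenic mice of 25 weeks. These values brought Nccrp1 over the minimum of 5 CPM, so its 25-week call was not independent of the choice. Sgk2, a kinase that activates ion transport, and Stk32b, also a kinase, were called with smaller margins (log2 differences 0.47 ± 0.19 and 0.80 ± 0.28, SE; edgeR adjusted p = 0.0451 and 0.0231), and the call of Sgk2 was lost on leaving out any 1 of the 8 libraries of 25 weeks, that of Stk32b on leaving out transgenic replicate 1 or wild-type replicate 1 or 4. Igsf9, Rhobtb1, Pnliprp2 (a pancreatic-type lipase of the chief cell list), Tpm2 (a tropomyosin of the smooth muscle list) and Gstk1 (a mitochondrial glutathione transferase) were not called, with log2 differences of 0.27, 0.30, 0.72, 0.10 and 0.30.

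Tpsab1 (chromosome 17, 25343245 to 25345562), a tryptase gene of mast cells, reversed through the wild-type level. Wild-type libraries were at 2.94, 4.33, 4.32, 5.42 and 5.61 CPM at 10 weeks, 18.3, 9.74, 14.4 and 16.7 CPM at 25 weeks and 20.5, 28.7, 25.9, 23.3 and 44.4 CPM at 55 weeks. Transgenic libraries were at 7.66, 9.34, 10.5, 8.04 and 6.29 CPM, then 12.5, 11, 7.46 and 9.52 CPM, and then 12, 5.95, 15.2, 17.9 and 8.38 CPM. The wild-type change from 10 to 55 weeks was 2.39 and the transgenic change 0.39. Its 25-week difference was the 1 in the direction that had already turned, -0.70 ± 0.27 (SE; edgeR adjusted p = 0.0415), a call that was lost on leaving out any 1 of 6 libraries, namely transgenic replicates 2, 3 and 4 and wild-type replicates 1, 3 and 4 (edgeR adjusted p from 0.0530 to 0.114). Of 8 mast cell genes tested beside it, 0 were called higher and 2 lower at 25 weeks. All genes tested had shares of 21% higher and 18.6% lower at that age, and of 31.7% and 27.6% at 55 weeks. At 55 weeks 2 of the 8 mast cell genes, the mucosal proteases Mcpt1 and Mcpt2, were called higher and 5 lower, among them Tpsb2 (12.1 against 6.91 CPM) and Cpa3 (4.78 against 2.86 CPM), the names being given after their values were seen. Reads of Tpsab1 and Tpsb2, which are close paralogs, may have been split between them in counting.

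**Figure D3:**
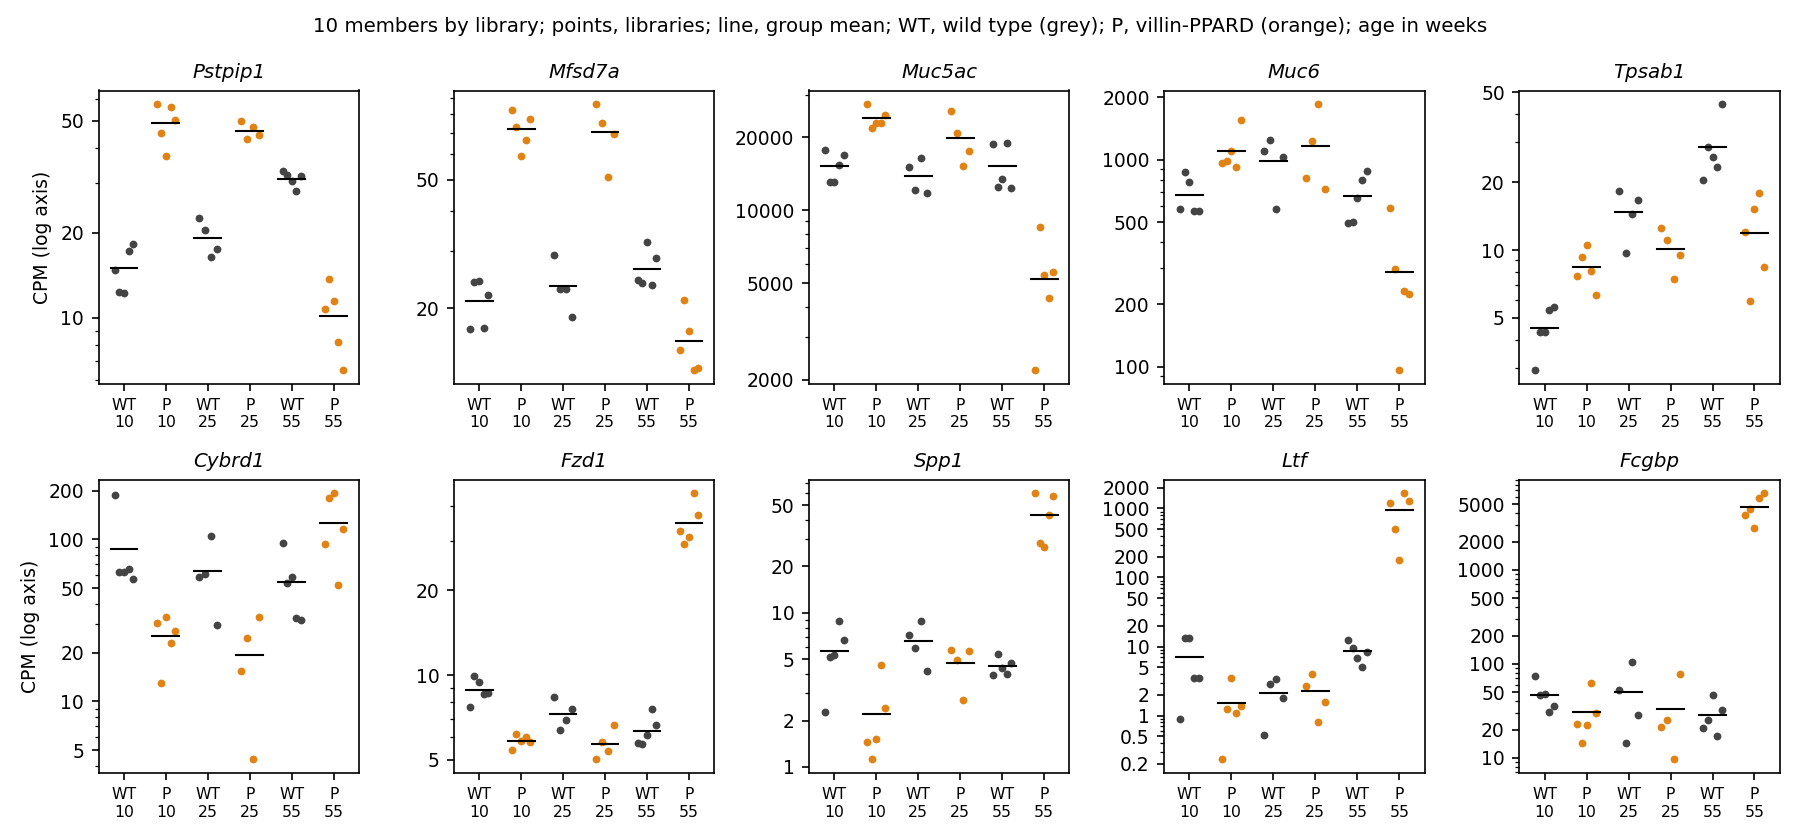
CPM on a log axis in each library for 10 members, by genotype (WT, wild type, grey; P, villin-PPARD, orange) and age in weeks; points are libraries and lines group means. Pstpip1 and Mfsd7a stand apart by genotype at all 3 ages, Tpsab1 rises with age in wild type, and Ltf and Fcgbp are above 100 CPM in the 5 transgenic libraries of 55 weeks.

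From 10 to 55 weeks the difference moved furthest in the second direction for Fcgbp, Ltf and Ush1g. Ltf and Ush1g passed the minimum mean of 5 CPM only through their 55-week transgenic libraries, as did Spp1 and Ceacam10, described below. The level limit was therefore not independent of the 55-week difference in these genes. Their transgenic means at 10 weeks were all under 5 CPM, so the early side of their reversal rested on low levels. Fcgbp (chromosome 7, 28071236 to 28120862), a mucus protein of goblet cells, was at 73.9, 46.8, 47.3, 30.7 and 36.0 CPM in wild-type and at 22.9, 14.5, 22.1, 62.4 and 29.8 CPM in transgenic libraries at 10 weeks. At 25 weeks it was at 52.3, 14.4, 105 and 28.6 CPM against 21.2, 25.3, 9.60 and 77.7 CPM. The 55-week values were 20.7, 25.2, 46.8, 16.9 and 32.2 CPM against 3813, 4452, 2789, 5838 and 6551 CPM. The genotypes of Fcgbp overlapped at 10 and 25 weeks and lay far apart at 55 weeks. By library group its 10-week difference was -1.45 and 0.37, so the early side of its reversal rested on replicates 1 to 3. The 25-week difference of -0.77 ± 0.55 (SE) was not called (edgeR adjusted p = 0.274), but was called without transgenic replicate 4 (log2 difference -1.57, edgeR adjusted p = 0.0325). Of 27 intestinal epithelial genes tested other than Fcgbp, 5 were called higher and 3 lower at 10 weeks, 8 higher and 4 lower at 25 weeks and 14 higher and 8 lower at 55 weeks. For all genes tested the shares at these ages were 17.9%, 21% and 31.7% higher and 16.2%, 18.6% and 27.6% lower.

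Ltf (chromosome 9, 111019271 to 111042767), which encodes the iron-binding protein lactoferrin of secretions and of neutrophil granules, was at 0.897, 13.4, 13.5, 3.49 and 3.54 CPM in wild-type and at 0.232, 1.23, 3.55, 1.11 and 1.39 CPM in transgenic libraries at 10 weeks. In the 25-week mice it was at 0.516, 2.91, 3.36 and 1.78 CPM against 2.64, 4.01, 0.808 and 1.56 CPM. Ltf was, at 55 weeks, at 12.6, 9.42, 6.94, 5.09 and 8.36 CPM against 1180, 497, 176, 1667 and 1280 CPM. Its high wild-type values at 10 weeks were those of the closely alike replicates 2 and 3, and with that pair as 1 library the 10-week difference was -1.09 in place of -1.40. The genotypes of Ltf overlapped at 10 and 25 weeks, and at 25 weeks the difference was -0.06 ± 0.87 (SE; edgeR adjusted p = 0.964) on 9 to 75 counts per library, with a sign that turned in 4 of the 8 fits that each left out a library.

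Spp1 (chromosome 5, 104435118 to 104441050), which encodes the secreted phosphoprotein osteopontin, was at 2.28, 5.13, 5.33, 8.86 and 6.64 CPM in wild-type and at 1.45, 1.12, 1.51, 4.59 and 2.42 CPM in transgenic libraries at 10 weeks. At 55 weeks it was at 3.97, 5.41, 4.38, 4.03 and 4.75 CPM against 59.8, 28.3, 26.8, 43.1 and 57.6 CPM. The groups of Spp1 overlapped at 10 weeks and lay apart at 55 weeks, and the 25-week difference of -0.63 ± 0.38 (SE) was not called (edgeR adjusted p = 0.188). Ceacam10, of a family of cell-surface and secreted adhesion proteins, averaged 4.32 CPM in the wild-type mice of 55 weeks, while its transgenic libraries were at 60.2, 11.4, 6.51, 89.4 and 29.9 CPM, all above the wild-type ones. Markers of immune cells moved at the same age: at 55 weeks 18 of 22 myeloid, 7 of 7 T and natural killer and 9 of 10 B and plasma cell genes were called higher, against 31.7% of all genes tested. The summed myeloid level ranged from 119 to 149 CPM in wild-type and from 379 to 799 CPM in transgenic mice, and its part in the values of Ltf and Spp1 was not tested.

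RefSeq promoter sequences of build GRCm38.p6 were matched to 27 of the 38 and 42 of the 54 members. The following are the first 220 bases of the 250 bases before the RefSeq start site, 5′ to 3′ on the strand of the gene, for the neck cell mucin and for the pair of secreted proteins above, shown because their transgenic levels moved in opposite directions from 10 to 55 weeks. Capitals mark matches to the letters searched on both strands: AGGTCA, the hexamer of nuclear receptors, in Ltf at position -46, and in Spp1 TATAAA at -211 and the core of the interferon-stimulated response element (a GAAA repeat spaced by a pair of bases) on the other strand at -157. The windows are chr7:141655424-141655643 (minus strand), chr9:111019042-111019261 (plus strand) and chr5:104434861-104435080 (plus strand). Spp1 has another RefSeq start further downstream, which begins as a GENCODE transcript does and whose window held 0 matches. The starts used for Spp1 and Muc6 did not match a GENCODE transcript start exactly, and that of Ltf did.
Muc6: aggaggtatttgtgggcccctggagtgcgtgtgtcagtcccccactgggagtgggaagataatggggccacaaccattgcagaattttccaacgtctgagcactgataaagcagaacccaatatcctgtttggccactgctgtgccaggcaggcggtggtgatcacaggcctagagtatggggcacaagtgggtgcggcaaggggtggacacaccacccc
Ltf: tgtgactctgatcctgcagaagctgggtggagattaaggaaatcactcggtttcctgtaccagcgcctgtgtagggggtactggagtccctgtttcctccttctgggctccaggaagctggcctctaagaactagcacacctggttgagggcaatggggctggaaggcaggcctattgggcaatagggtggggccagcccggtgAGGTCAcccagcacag
Spp1: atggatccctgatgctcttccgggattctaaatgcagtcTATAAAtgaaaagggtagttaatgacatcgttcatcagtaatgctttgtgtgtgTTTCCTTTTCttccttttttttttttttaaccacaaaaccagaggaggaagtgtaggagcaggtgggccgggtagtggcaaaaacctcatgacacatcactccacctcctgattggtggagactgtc

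The shares of promoters with each motif are given as counts, with no test. AGGTCA was found in the 250 bases of 2 of 27 genes of the first and 7 of 42 of the second direction, against 12.9% of 7656 genes with a mean of at least 5 CPM. The core of the interferon-stimulated response element was found in 0 and 1, against 3.28%, and the AP-1 site TGANTCA in 3 and 1, against 5.88%. A relaxed nuclear factor kappa B site was found in 10 and 13, against 26.8%, and TATAAA in 3 and 4, against 7.78%. A pair of AGGNCA hexamers spaced by 1 base, the form that PPARs bind and which can hold AGGTCA, was found in 0 and 1 (Ceacam10), against 0.248%. These are matches of letters and not measured binding.

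Cybrd1 (chromosome 2, 71117923 to 71142926), a ferric reductase of iron uptake, was at 187, 63.2, 62.7, 65.5 and 56.9 CPM in wild-type and at 30.5, 12.9, 32.9, 23 and 27.1 CPM in transgenic libraries at 10 weeks. At 25 weeks it was at 58.8, 61.3, 104 and 29.7 CPM against 15.4, 24.8, 4.37 and 33.1 CPM. The 55-week values were 94.6, 53.5, 58.7, 32.7 and 31.7 CPM against 93.6, 180, 193, 52.2 and 116 CPM. The genotypes of Cybrd1 did not overlap at 10 weeks and overlapped at 25 and 55 weeks. In the 25-week mice it was called lower (log2 difference -1.89 ± 0.55, SE; edgeR adjusted p = 0.00832). Abca5, a lipid transporter, was also called lower (-0.51 ± 0.17, SE; edgeR adjusted p = 0.0212), and the call was lost when transgenic replicate 1 or 2 or wild-type replicate 3 or 4 was left out (edgeR adjusted p from 0.0508 to 0.0766). Xpr1, the phosphate exporter, and Slc16a3, a lactate transporter, had log2 differences of -0.24 and -0.61 and were not called. Without transgenic replicate 4, Slc16a3 was called lower (-1.30, edgeR adjusted p = 0.00265). Slc16a3 and Pfkfb3, a regulator of glycolysis called lower at 25 weeks (-0.83 ± 0.22, SE; edgeR adjusted p = 0.0047), were the members among 26 hypoxia and glycolysis genes tested, of which 4 were called higher and 8 lower at that age. Across all genes tested 21% were called higher and 18.6% lower.

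Ces1f (chromosome 8, 93256236 to 93279747), a carboxylesterase gene, was at 66.5, 58.1, 58.2, 69.6 and 69.6 CPM in wild-type and at 34.9, 39.3, 36.9, 46.0 and 28.8 CPM in transgenic libraries at 10 weeks. At 25 weeks it was at 101, 65.2, 73.7 and 64.5 CPM against 39.5, 48.9, 45 and 44.7 CPM. Ces1f was, at 55 weeks, at 76.6, 68.9, 92.0, 81.9 and 83.1 CPM against 142, 127, 113, 175 and 149 CPM. The genotypes of Ces1f did not overlap at any age, with wild type above at the first 2 and below at 55 weeks (25-week log2 difference -0.93 ± 0.14, SE; edgeR adjusted p = 4.81e-06). Under TMM the 55-week differences of Ces1f, Tmco3, Pfkfb3, Kdsr, Nenf, Sptssa and Gm8113 were 0.40, 0.28, 0.29, 0.22, 0.45, 0.40 and 0.30. Those of Mlec, Ppat and Kitl, the members just inside the limit, were 0.20, 0.17 and 0.30. All of these were under the limit of the rule. Cyp2d34, a cytochrome P450 gene, was called lower at 25 weeks (-1.15 ± 0.25, SE; edgeR adjusted p = 0.000597), and its wild-type and transgenic means at 55 weeks were 9.79 and 34.8 CPM. Ces1f and Cyp2d34 belong to families of near-identical genes, and Cyp2d37-ps, a pseudogene of the same cytochrome family named here after its values were seen, belonged to the first direction, so reads may have been split among copies. Kdsr, an enzyme of sphingolipid synthesis, was called lower at 25 weeks (-0.51 ± 0.08, SE; edgeR adjusted p = 2.07e-05), and Sptssa, a subunit of the first enzyme of that pathway, was not (-0.26 ± 0.18, SE; edgeR adjusted p = 0.247).

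Fzd1 (chromosome 5, 4753839 to 4758035), a receptor for Wnt ligands, was at 7.71, 9.91, 9.41, 8.58 and 8.63 CPM in wild-type and at 5.4, 6.15, 5.81, 6.04 and 5.77 CPM in transgenic libraries at 10 weeks. In the 25-week mice it was at 8.36, 6.37, 6.91 and 7.55 CPM against 5.01, 5.76, 5.37 and 6.63 CPM. The 55-week values were 5.73, 5.68, 6.11, 7.56 and 6.65 CPM against 29.3 to 44.3 CPM. The groups of Fzd1 stood apart at 10 and 55 weeks and overlapped slightly at 25 weeks, where it was called lower (-0.53 ± 0.13, SE; edgeR adjusted p = 0.00146). With the closely alike wild-type pair of 10 weeks as 1 library, the 10-week difference of Fzd1 was -0.49 in place of -0.52, short of the limit. Of the 31 other genes of the Wnt pathway and stem cells tested, none of them a member, 5 were called higher and 7 lower at 25 weeks and 14 higher and 10 lower at 55 weeks. Shares over all genes tested were 21% higher and 18.6% lower at 25 weeks, and 31.7% and 27.6% at 55 weeks.

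Other members of the second direction differed in their 25-week values, and none of the direction was called higher at that age. Phgr1, a small protein gene of gut epithelium, was at 65.1, 34.4, 75.7 and 59.7 CPM in wild-type and at 15.7 to 33.9 CPM in transgenic libraries at 25 weeks, and at 62.9, 38.6, 66.4, 69.9 and 68.6 CPM against 152, 156, 142, 140 and 129 CPM at 55 weeks. Its groups did not overlap at these ages, and it was called lower at 25 weeks (-1.45 ± 0.22, SE; edgeR adjusted p = 1e-05). Tmco3, a transmembrane protein gene, had the lowest p of the 54 at 25 weeks (-0.78 ± 0.11, SE; edgeR adjusted p = 1.66e-06), and Nenf, a secreted neurotrophic protein gene, and Gm8113 were also called lower (-0.94 and -0.94). Ush1g, a scaffold protein gene known from sensory hair cells, was at 0.596 to 1.42 CPM in transgenic and 1.43 to 3.47 CPM in wild-type libraries at 10 weeks and at 25.7 to 36.2 CPM against 0.950 to 2.04 CPM at 55 weeks. At 25 weeks Ush1g had 8 to 52 counts per library and was not called (-0.13 ± 0.44, SE; edgeR adjusted p = 0.838). Kitl, the ligand of the receptor Kit and a member just inside the limit, was at 28.1, 56.8, 51 and 44.3 CPM in wild-type and at 62.7, 57.0, 57.8 and 58.4 CPM in transgenic libraries at 25 weeks, where the groups did not overlap and the difference of 0.22 ± 0.22 (SE) was not called (edgeR adjusted p = 0.43).

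A smaller part of the second direction than of the first reached the 10-week limit in both library groups. Its 10-week differences also lay nearer the limit, with a median of -0.61 against 0.77. The part of the library group was not tested. In the first direction the median 10-week difference was 0.79 in the first library group, with 3 mice per genotype, and 0.76 in the second, with 2, and 24 of 38 genes reached 0.5 in both; 37 had the same sign in both, with Ccdc80 as the exception. In the second direction the medians were -0.70 and -0.47, 19 of 54 reached -0.5 in both and 51 had the same sign, the exceptions being Fcgbp, Ptpn4 and Kitl. Ptpn4 is named here after its values were seen. On leaving out each of the 20 libraries of 10 and 55 weeks in turn, 24 of the 38 and 26 of the 54 met the rule every time. Without transgenic replicate 3 of 10 weeks, 89 genes met the rule of the second direction, all 54 members among them. With the closely alike wild-type pair as 1 library, 36 and 43 genes met the rule, 35 and 41 of them members. In the first direction Sema3e, Adcy2 and Ccdc80 were lost, with 10-week differences of 0.397, 0.475 and 0.499. Those lost from the second included Fzd1, Nenf, Mlec, Ppat, Kitl and Ptpn4, with -0.493, -0.499, -0.459, -0.480, -0.437 and -0.482.

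**Figure D4:**
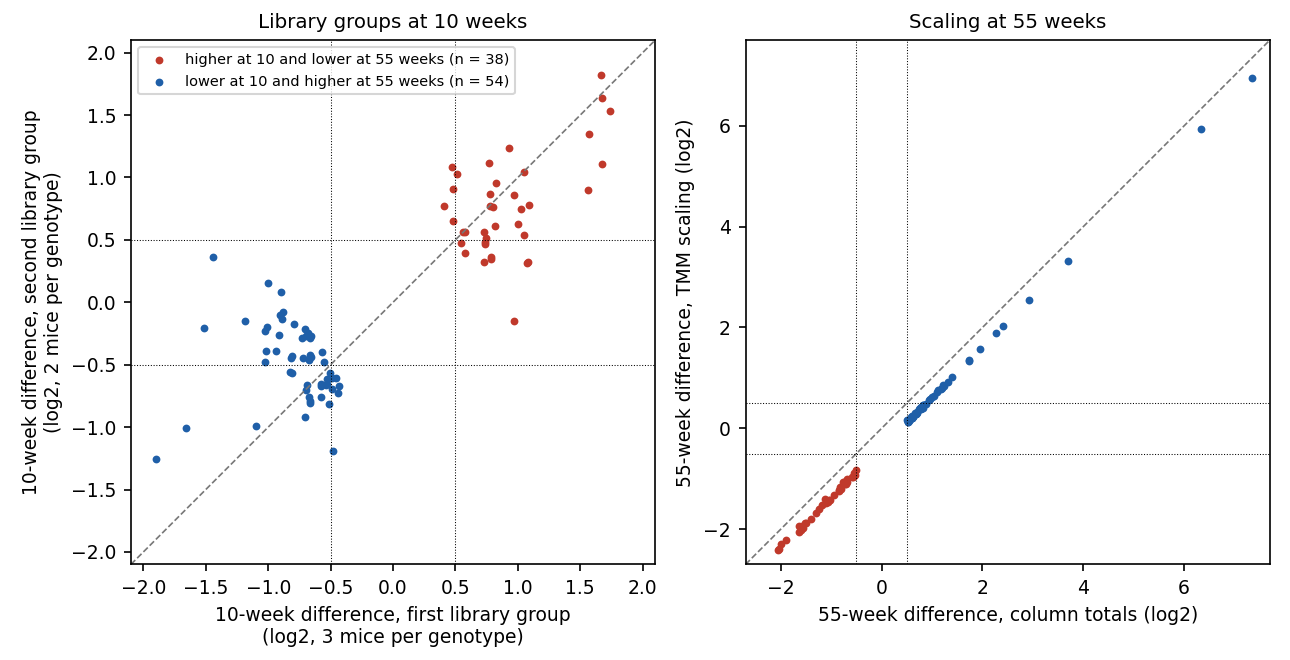
Left, 10-week difference of each member in the first library group (horizontal axis, 3 mice per genotype) against the second (vertical axis, 2 mice per genotype); right, 55-week difference with column totals against TMM factors. All values are transgenic minus wild type in mean log2(CPM + 1), dotted lines mark 0.5 in size and the dashed line equality; the points of the right panel lie below equality, where TMM lowers the 55-week difference of all genes by a median of 0.39.

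Length and base composition of the transcripts differed between the directions. All 92 members were matched to GENCODE M21 on GRCm38. The median length of the merged exons was 2832.5 bases in the first direction and 6009.5 in the second, against 4658 over all genes of at least 5 CPM, and the median GC content was 53.5% and 46.4%, against 49.8%. Across 9824 genes, which are not independent replicates, the 10-week difference and GC content had a Spearman correlation of 0.23 in the first library group and -0.05 in the second, and -0.27 at 25 weeks and -0.05 at 55 weeks. The part of GC content and length in the members' 10-week differences was not tested. The median level of the members was 30.5 CPM in the first direction and 13.9 CPM in the second, against 27.8 CPM over all genes.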

How the data were processed

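Polyadenylated RNA of scraped corpus epithelium was sequenced as 75-bp read pairs from libraries that do not mark the strand. The authors deposited raw counts per gene, made with TopHat2 (2.0.14), HTSeq (0.6.1) and mm10 per the submitters' processing notes; annotation and strand setting: not given in the sources used here. Totals of 10982888 to 30891108 per library limit the precision of low counts, and the spread among mice also enters the standard errors.

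CPM, log2(CPM + 1) with a pseudocount of 1, group means and the rule were computed from the counts. The 25-week test was edgeR (4.0.16) with filterByExpr, TMM and 1 mean per group, two-sided, checked on simulated data; standard errors are the log2 difference over the root of F. Alternatives were DESeq2 (1.42.0), other scalings, filters, thresholds and removal of each library. In each direction the text names the 15 members with the largest smaller difference, the 5 with the lowest 25-week p, and members of any gene list; predicted genes outside the 15 are counted only. The members and lists were chosen with earlier results of these data known. Same-numbered mice of 25 weeks did not deviate together.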

Additional observations from a re-analysis of the deposited data

Results flagged for a closer look

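Values per library of 16 members were searched for a library far from the rest of its group; chance gives about 1 such library in 20 groups, and 4 of 96 groups had one. Dpcr1 was at 12273 CPM in wild-type replicate 1 of 55 weeks, where the other 4 lay between 9302 and 10137 CPM. Muc6 was at 1555 CPM in transgenic replicate 5 of 10 weeks, against 922 to 1105 CPM. Cybrd1 was at 187 CPM in wild-type replicate 1 of 10 weeks, against 56.9 to 65.5 CPM. Phgr1 was at 38.6 CPM in wild-type replicate 2 of 55 weeks, against 62.9 to 69.9 CPM.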

How the results depend on the processing

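Genes that met the rule in the first direction (38) numbered 68 with TMM and 68 with DESeq2 size factors, 60, 12 and 4 with limits of 0.4, 0.75 and 1, and 33 to 44 without 1 library. Those of the second (54) numbered 34 with TMM, 34 with a mean of at least 10 CPM, 124, 7 and 3 with limits of 0.4, 0.75 and 1, 134 with 10-week replicates 1 to 3 only, and 40 to 89 without 1 library. At 25 weeks 6262 genes were called, 4863 to 6807 without 1 library. With the replicate number as a block, 3405 genes, 18 members of the first direction and 20 of the second were called; the numbers did not pair the mice (correlations -0.0982 to 0.00185). Called members were 19 and 25, 13 to 20 and 21 to 27 without 1 library, and 15 in the second direction with library size alone. The cause of these shifts was not tested, except that stricter limits admit fewer genes. Genes that were not called changed sign: Muc6 to -0.004659 with 25-week libraries only and -0.0638 with the block, and -0.2551 to 0.2108 without 1 library; Tpm2 to -0.002928 without wild-type replicate 4, and -0.002928 to 0.2571 without 1 library; Ltf to 0.08814 with library size alone and -0.4888 to 0.3212 without 1 library; Fut9 to 0.02496 with library size alone and -0.3855 to 0.03063 without 1 library; and Ush1g to 0.04505 with library size alone and -0.9288 to 0.1852 without 1 library. Low counts limit Ltf and Ush1g at 10 and 25 weeks.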
